A study of Mus musculus with 3 samples.

Results

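The Alb-Afp locus, the Cyp2c cluster and the Serpina cluster hold genes that are known for their expression in liver, and they were examined here in fibroblasts by their contact with the nuclear lamina. The loci were fixed by position in the mouse build mm9, as chromosome 5 90800001 to 91000000 (Alb-Afp, 200 kb), chromosome 19 39100001 to 39800000 (Cyp2c cluster, 700 kb) and chromosome 12 105000001 to 105700000 (Serpina cluster, 700 kb). They held 4642 of the 6415372 fragments of each profile, with 490 in Alb-Afp, 2212 in the Cyp2c cluster and 1940 in the Serpina cluster. The 500 kb on each side of every locus was kept apart as its left and right flank and held 7608 fragments in all.

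The study profiled wild-type C57BL/6 mouse embryonic fibroblasts transduced with a murine retrovirus that expressed Dam fused to Lamin A (Dam-Lamin A), Dam fused to Lap2b (Dam-Lap2b) or unfused Dam, with 1 sample in each of the 3 groups. The labels named no cell line, clone or promoter for the fusions, and the fusions were expressed from the virus in addition to the proteins of the cell. Each fusion had a profile of log2 values along the genome and a list of lamina-associated domains (LADs). Its values had the form of a ratio to 1 common reference, presumed to be the Dam-only library, so that similar values in both profiles are partly given by that reference. Without replicates, no difference between the fusions could be tested, and an SD over bins describes neighbouring parts of 1 library. No expression was measured.

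Dam is a bacterial enzyme that methylates the adenine of GATC, and in DamID a fusion protein leaves this mark on DNA that it touches. Lamin A forms filaments of the lamina under the nuclear envelope, and Lap2b is a protein of the inner nuclear membrane. Long domains that touch the lamina are known to be poor in active genes, and genes of other tissues often lie in them. Alb encodes serum albumin, Afp the fetal serum protein alpha-fetoprotein and Afm the vitamin E-binding protein afamin, all secreted by liver cells. Cyp2c genes encode cytochrome P450 enzymes that oxidise drugs and fatty acids. Serpina genes encode mostly secreted protease inhibitors, among them the alpha-1 antitrypsins of the Serpina1 group and the antichymotrypsin relatives of the Serpina3 group.

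In the RefSeq annotation of GRCm38.p6, Alb, Afp and Afm follow each other, after Ankrd17 and before Albfm1, Rassf6 and a group of chemokine genes that begins with Cxcl5. The Cyp2c run has 18 members, of which 4 are pseudogenes, from Cyp2c52-ps to Cyp2c70, after Hells and before Pdlim1. The Serpina run has 28 members, of which 5 are pseudogenes, from Serpina10 to Serpina3n, after Ppp4r4 and before Gsc. In that build the Cyp2c and Serpina runs are each longer than the 700 kb examined, so each locus is a stretch of its cluster. The flanks may hold further members, so locus against flanks is not cluster against surroundings. Since that build is not the one of the profiles, no bin was assigned to a single gene.

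Promoters of 4 genes are shown because DamID reads DNA only through GATC, and because the 3 promoters of the albumin family all held GTTAAT. Each is the 250 bases before the RefSeq start (GRCm38.p6, so the coordinates cannot be set beside those in mm9), with GATC and GTTAAT in capitals on whichever strand they occur. GTTAAT is the first part of the sequence that the liver transcription factor HNF1 is known to bind.
Alb, chr5:90460620-90460869, + strand: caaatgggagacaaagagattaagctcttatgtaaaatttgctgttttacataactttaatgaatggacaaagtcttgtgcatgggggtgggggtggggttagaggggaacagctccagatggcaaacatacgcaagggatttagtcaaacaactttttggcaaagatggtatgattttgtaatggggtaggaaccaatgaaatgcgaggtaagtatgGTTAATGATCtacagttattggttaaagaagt
Afp, chr5:90490464-90490713, + strand: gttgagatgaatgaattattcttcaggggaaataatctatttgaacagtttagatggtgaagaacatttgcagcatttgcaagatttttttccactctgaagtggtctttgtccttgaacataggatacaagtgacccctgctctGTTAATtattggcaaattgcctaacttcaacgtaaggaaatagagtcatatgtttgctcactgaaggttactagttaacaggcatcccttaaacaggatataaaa
Cyp2c29, chr19:39286835-39287084, + strand: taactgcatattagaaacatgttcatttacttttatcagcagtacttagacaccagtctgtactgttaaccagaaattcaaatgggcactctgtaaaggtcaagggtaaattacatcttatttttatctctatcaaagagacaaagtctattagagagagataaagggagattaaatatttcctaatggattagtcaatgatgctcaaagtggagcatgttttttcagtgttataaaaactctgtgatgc
Serpina1a, chr12:103863620-103863869, - strand: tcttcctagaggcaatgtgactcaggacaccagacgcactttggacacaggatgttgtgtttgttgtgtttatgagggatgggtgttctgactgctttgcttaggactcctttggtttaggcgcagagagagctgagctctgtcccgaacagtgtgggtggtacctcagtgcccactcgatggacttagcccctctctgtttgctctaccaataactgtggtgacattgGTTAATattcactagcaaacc

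Of these 4 windows, only that of Alb held GATC, directly after its GTTAAT, at 26 to 23 bases before the start. Both motifs were searched on both strands in the promoters that the RefSeq table held for 3 of 3 genes of the albumin family, 13 of 18 Cyp2c members and 18 of 28 Serpina members. GTTAAT occurred in 3 of 3 promoters of the albumin family, 3 of 14 Cyp2c promoters and 6 of 20 Serpina promoters, against 6.43% of all 32851 promoters. The motif was chosen because the albumin family held it, so its 3 of 3 is no finding. The 14 and 20 promoters belong to 13 and 18 genes of 1 family each and are not independent, and enrichment was not tested. GATC occurred in 1 of 3, 5 of 14 and 3 of 20, against 41.9% of all promoters. A promoter window without GATC lies within a single GATC fragment and is read only through the ends of that fragment. Matches of letters are a description and not binding sites.

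Profiles and lists went together crosswise over the whole genome, so both are named by their labels. In the 16943 bins of 10 kb that only the Dam-Lamin A-labelled list held, its namesake profile averaged 0.42 (log2) less than in the 6436 bins that only the Dam-Lap2b-labelled list held, with means of −0.04 and 0.37. In the Dam-Lap2b-labelled profile the order was the other, with 0.46 and 0.04. Which file carries the wrong label, if any, was not tested. The recovered reads, which are lower bounds, summed to 139342109 in the Dam-Lamin A library, 151506944 in that of Dam-Lap2b and 153448873 in the reference. Here and below, reads of a fusion are named by the label of the profile that they were recovered from. Over all 255936 bins the profiles averaged 0.20 ± 1.31 (SD) and 0.29 ± 1.24. The loci and flanks had 160 and 300 bins, and within the loci a bin held 167 to 3013 Dam-Lamin A reads and 100 to 1682 reference reads.

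All 3 loci were mostly inside LADs in these fibroblasts, but they differed in how the domain was laid out. The 700 kb of the Cyp2c cluster that were examined lay whole inside a single domain of more than a megabase. The Alb-Afp window was nearly filled by a domain of its own, between stretches with low ratios of both fusions to the reference. The Serpina cluster was split into separate domains with an interior stretch between them. A domain edge lay inside the windows of Alb-Afp and the Serpina cluster, and none inside that of the Cyp2c cluster.

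**Figure D1:**
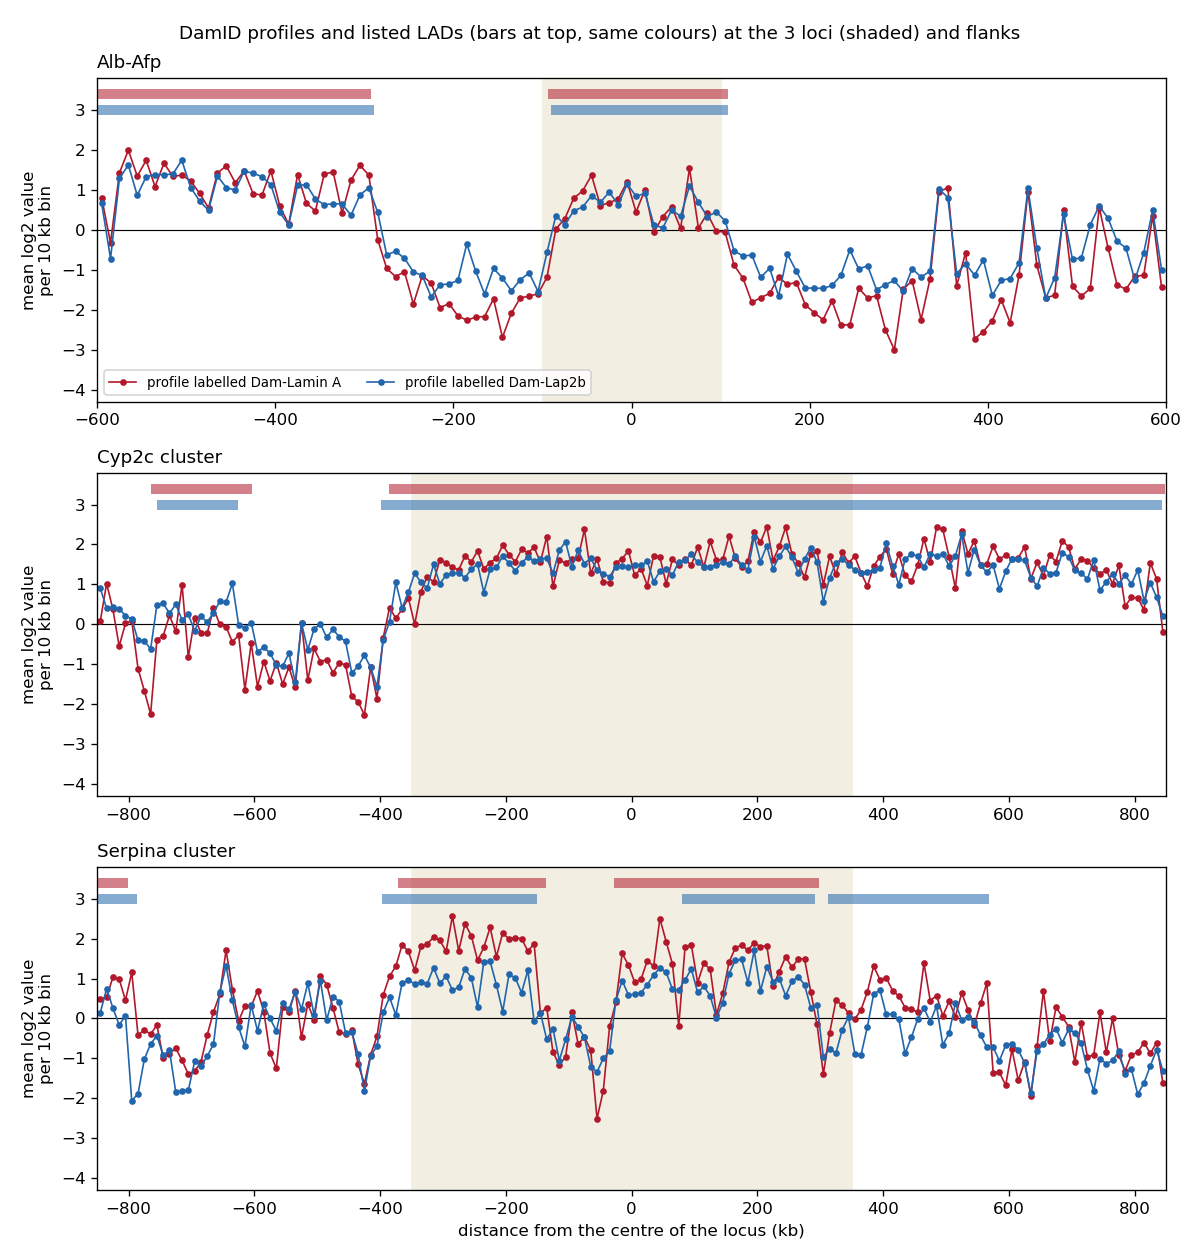
Mean log2 value of 10 kb bins (vertical axis) against distance from the centre of each locus in kb (horizontal axis), for the Dam-Lamin A-labelled (red) and Dam-Lap2b-labelled (blue) profiles, with the LADs of the 2 lists as bars of the same colours above them. The shaded locus is an isolated rise for Alb-Afp, part of a longer plateau for the Cyp2c cluster, and 2 rises with a trough between them for the Serpina cluster.

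Alb-Afp had moderate lamina signal over nearly its whole length. Its 20 bins averaged 0.50 ± 0.62 in the Dam-Lamin A-labelled profile (lowest −1.18, median 0.52, highest 1.55) and 0.53 ± 0.41 in the Dam-Lap2b-labelled profile (lowest −0.56, median 0.54, highest 1.16). The former mean became 0.24 when fragments were weighted by length, and the means became 0.31 and 0.28 when each profile was centred on its autosomal mean. Of these bins 17 were above 0 in the former profile, where 55.2% of all bins were, and 19 in the latter, where 59.3% were. Both lists held 19 of the 20 bins (95%, exact Clopper-Pearson 95% interval 75.1 to 99.9%), against 54.6% of all bins for the Dam-Lamin A-labelled list and 50.5% for the Dam-Lap2b-labelled list. Domains called with 1 rule from the Dam-Lamin A-labelled profile, as runs of bins above 0 of at least 100 kb, held only 55% of the locus, because a bin at −0.05 broke the run. Here and below, intervals of shares cover counting error only.

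The level of this domain was below that of most LADs. Its 19 bins in both lists averaged 0.59 and 0.59 in the Dam-Lamin A-labelled and Dam-Lap2b-labelled profiles. Bins in both lists made up 47.9% of all bins and averaged 1.29 ± 0.69 and 1.34 ± 0.54. As single bins, 16.1% and 9.85% of them lay below the Alb-Afp means. As whole domains the rank was less extreme. Of the LADs of the Dam-Lamin A-labelled list, 36.3% and 28.6% had a lower mean than the Alb-Afp LAD in the 2 profiles. Of those of the Dam-Lap2b-labelled list, 24.7% and 21.7% did. Of all windows of 200 kb laid end to end along the genome, 43.5% and 47.0% had a higher mean than Alb-Afp. The locus was therefore near the middle of the genome as a whole and in the lower part of the listed domains.

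Within Alb-Afp the signal rose at the left end and stayed above or near 0 to the right end. The lowest bin was the first, chromosome 5 90800001 to 90810000, with −1.18 in the Dam-Lamin A-labelled profile and −0.56 in the other, and it was the only bin in neither list, where 42.9% of all bins were. The next bin was at 0.03 and 0.36, and by 90850001 to 90860000 the values were 1.37 and 0.86. The highest bin was 90960001 to 90970000, with 1.55 and 1.10 from 786 Dam-Lamin A, 809 Dam-Lap2b and 346 reference reads. A weak spot lay between the peaks, at 90920001 to 90930000, with −0.05 and 0.13.

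The domain edges lay close to the ends of the window examined. That window was fixed by position and not by gene ends, so the closeness is no result about the genes. The Dam-Lamin A-labelled LAD ran from 90806113 to 91007727 (202 kb) and the Dam-Lap2b-labelled LAD from 90809538 to the same last base (198 kb). The starts were 3.43 kb apart. Both ended 7.73 kb past the right end of the locus. Of the LADs of each list, 30.4% and 34.4% were shorter.

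Both sides of this domain had values well below 0. To the left, a stretch of 198 kb without a LAD separated it from the next domain, and in its 20 bins the profiles averaged −1.65 ± 0.57 and −1.02 ± 0.51. To the right, no LAD followed for 839 kb in the Dam-Lamin A-labelled list and 837 kb in the other, longer than 83.2% and 83.6% of the gaps of each list. The right flank averaged −1.33 ± 0.96 and −0.75 ± 0.72 and reached −3.00 in the Dam-Lamin A-labelled profile, at 91190001 to 91200000, where 0.0672% of all bins were lower.

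Against both flanks together, the locus was higher by 1.13 in the Dam-Lamin A-labelled profile and by 0.81 in the Dam-Lap2b-labelled profile. With flanks of 200 kb, which leave out the LAD farther to the left, these values became 2.11 and 1.51. The left flank reached into that LAD and averaged 0.07 ± 1.47 and 0.20 ± 1.11. Small rises stood in the right flank, of which those at 91240001 to 91260000 and 91340001 to 91350000 were chosen after their values were seen. Their bins were at 0.95, 1.06 and 0.96 in the Dam-Lamin A-labelled profile and at 1.03, 0.81 and 1.04 in the other, and none of them was in a list. They lay near or above the upper quartile of the Alb-Afp bins, which was 0.84 and 0.85.

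The Cyp2c cluster had the highest and most even signal of the 3 loci. Its 70 bins averaged 1.59 ± 0.40 in the Dam-Lamin A-labelled profile (lowest −0.00, median 1.61, highest 2.44) and 1.47 ± 0.28 in the Dam-Lap2b-labelled profile (lowest 0.56, median 1.48, highest 2.19). Above 0 were 69 and 70 bins, against 55.2% and 59.3% of all bins. Both lists held 70 of 70 (interval 94.9 to 100%), against 47.9% of all bins. Of all windows of 700 kb laid end to end, 9.79% and 16.2% had a higher mean. The SD over bins was larger in 96.6% and 98.1% of these windows, so few stretches of this length were as uniform. The windows were laid without regard to LADs, and those whole inside a LAD, as this locus is, were not compared apart.

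Most single fragments were above 0 as well. Of the 2212 fragments, 93.6% were above 0 in the Dam-Lamin A-labelled profile and 95.3% in the Dam-Lap2b-labelled profile, against 60.6% and 62.7% of all fragments. Fragments here were short, with a median of 194 bp against 258 bp in all, so a bin held a mean of 31.6 fragments against 25.1. The letters GATC thus came more densely in this locus than in the genome on average, and the bin means rest on more fragments.

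The highest Cyp2c bin by the mean of both profiles was chromosome 19 39640001 to 39650000, with 2.32 and 2.19, above 96.9% and 98.0% of all bins. It rested on 812 Dam-Lamin A, 960 Dam-Lap2b and 174 reference reads. The lowest was the first bin, 39100001 to 39110000, where the Dam-Lamin A-labelled profile was at −0.00 and the Dam-Lap2b-labelled profile at 1.28. This was the only bin of the cluster in which the profiles differed by more than 1. It held 16 fragments, with 253 Dam-Lamin A, 610 Dam-Lap2b and 228 reference reads. Near the right end, the bin 39750001 to 39760000 dipped to 0.99 and 0.56 and stayed above 0.

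The domain around the Cyp2c cluster began shortly before the locus and ended well after it. The Dam-Lamin A-labelled LAD ran from 39064226 to 40297781 (1.23 Mb) and the Dam-Lap2b-labelled LAD from 39051171 to 40294056 (1.24 Mb). It was longer than 86.7% and 89.97% of the LADs of each list. In the first list 86.3% of LADs had a lower mean in the Dam-Lamin A-labelled profile, and in the other list 78.5% had a lower mean in the Dam-Lap2b-labelled profile.

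The flanks of the Cyp2c cluster were unlike each other. The right flank continued the domain with 1.47 ± 0.51 and 1.36 ± 0.37, only 0.11 below the locus in either profile and less than the SD over bins. The left flank averaged −0.62 ± 0.83 and −0.13 ± 0.64, so that the locus was higher by 2.21 and 1.60. It held a weak LAD of 161 kb in the Dam-Lamin A-labelled list and 130 kb in the other. The profiles averaged −0.32 and 0.23 in the former interval, so the Dam-Lamin A-labelled profile was below 0 inside the LAD of its own label. Beyond the LAD around the cluster, the next one to the right came after 2576 kb and 2594 kb, longer than 95.4% of the gaps of each list.

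The Serpina cluster was uneven, and it was the locus at which the profiles and lists differed most. Its 70 bins averaged 1.00 ± 1.11 in the Dam-Lamin A-labelled profile (lowest −2.51, median 1.39, highest 2.56) and 0.51 ± 0.74 in the Dam-Lap2b-labelled profile (lowest −1.34, median 0.72, highest 1.71). The latter mean became 0.25 when the profile was centred on its autosomal mean. Above 0 were 57 and 55 bins (81.4% and 78.6%), against 55.2% and 59.3% of all bins. The Dam-Lamin A-labelled list held 54 bins (77.1%, interval 65.6 to 86.3%), against 54.6% of all bins. The Dam-Lap2b-labelled list held 45 (64.3%, 51.9 to 75.4%), against 50.5% of all bins. Neighbouring bins fell in the same few LADs, so neither interval tests the share of the locus against that of all bins. Both lists held 41 bins (58.6%, against 47.9% of all bins) and neither list 12 (17.1%, against 42.9%). The Dam-Lamin A-labelled list alone held 13 and the Dam-Lap2b-labelled list alone 4. Bins of the first list alone made up 18.6% of the locus and 6.62% of all bins, and bins of the other list alone 5.71% and 2.51%.

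The left part of the Serpina cluster, chromosome 12 105000001 to 105199467, was in both lists. Its 20 bins averaged 1.90 ± 0.32 in the Dam-Lamin A-labelled profile (1.20 to 2.56) and 0.88 ± 0.40 in the Dam-Lap2b-labelled profile (−0.08 to 1.43). The former was the higher in 20 of 20 bins, by 1.02 on average. Over all 41 bins of the locus that both lists held, the means were 1.62 and 0.89, and 67.5% and 19.8% of all bins in both lists were lower. Against single bins in both lists, the locus was thus in the upper part in one profile and in the lower part in the other. The Dam-Lamin A-labelled LAD that held the left part ran from 104978473 to 105213635 (235 kb). Of the LADs of its list, 94.0% had a lower mean in the Dam-Lamin A-labelled profile and 48.2% in the other. The Dam-Lap2b-labelled LAD ran from 104953640 to 105199467 (246 kb), and these shares were 92.9% and 35.3%. For the LADs farther right, they were 76.4% and 48.3% (from 105321700) and 77.0% and 41.9% (from 105430121). As whole domains, these LADs thus stood nearer the middle in the Dam-Lap2b-labelled profile.

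A trough of 108 kb followed, from 105213636 to 105321699, which neither list held. Its 11 bins averaged −0.82 ± 0.82 in the Dam-Lamin A-labelled profile and −0.67 ± 0.45 in the other. The lowest bin of the locus lay here, 105290001 to 105300000, with −2.51 and −1.34. It held 1682 reference reads against 267 and 440 reads of the fusions, and it had the most reference reads of all bins in the 3 loci. In the Dam-Lamin A-labelled profile 0.654% of all bins were lower, and in the Dam-Lap2b-labelled profile 11.5% were.

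To the right of the trough the lists parted. From 105321700 to 105430120 only the Dam-Lamin A-labelled list had a LAD. The 11 bins averaged 1.24 ± 0.72 in its namesake profile and 0.82 ± 0.26 in the Dam-Lap2b-labelled profile. This was nearly the level of the next 211 kb, 105430121 to 105641003, which both lists held and where the 21 bins averaged 1.36 ± 0.49 and 0.90 ± 0.41. The highest bin of the locus by the mean of both profiles, 105390001 to 105400000 with 2.50 and 1.27, was thus outside the Dam-Lap2b-labelled list. At the border between these stretches, the bin 105420001 to 105430000 fell to −0.18 in the Dam-Lamin A-labelled profile and stayed at 0.71 in the Dam-Lap2b-labelled profile.

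At the right end a LAD was listed under Dam-Lap2b only, from 105663038 to 105918656 (256 kb), of which 37.0 kb lay in the locus. Over its 26 bins the Dam-Lamin A-labelled profile averaged 0.44 ± 0.43 and the Dam-Lap2b-labelled profile −0.20 ± 0.47. Only 2.57% of the LADs of that list had a lower mean in the profile of the same label, and 18.0% had a lower mean in the other. Its signal was therefore that of a weak domain in one profile and of no domain in the profile whose label it carried.

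Both flanks of the Serpina cluster were lower than the locus, by 1.09 in the Dam-Lamin A-labelled profile and 0.94 in the Dam-Lap2b-labelled profile. With flanks of 200 kb, these differences became 0.66 and 0.53. The left flank averaged 0.05 ± 0.87 and −0.25 ± 0.86, and the right flank −0.21 ± 0.84 and −0.61 ± 0.62. In the left flank 1 bin, 104550001 to 104560000, had the largest difference between the profiles of all bins examined, with 1.15 in the Dam-Lamin A-labelled profile and −2.06 in the other. It held 15 fragments with 982 Dam-Lamin A, 102 Dam-Lap2b and 475 reference reads.

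**Figure D2:**
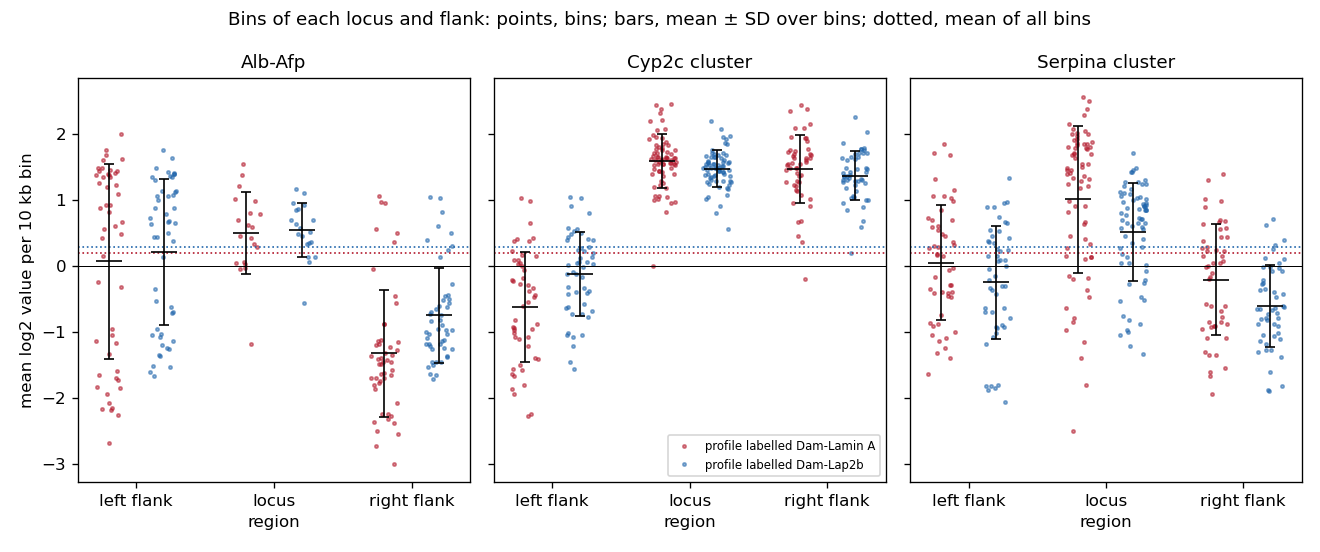
Mean log2 value of each 10 kb bin (points, vertical axis) in the left flank, locus and right flank (horizontal axis), for the Dam-Lamin A-labelled (red) and Dam-Lap2b-labelled (blue) profiles, with the mean ± SD over bins in black and the mean of all bins dotted. The Cyp2c bins sit tightly around 1.59 and 1.47, while the Serpina bins spread from −2.51 to 2.56 in the Dam-Lamin A-labelled profile.

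The fusions were then compared bin by bin. In the Serpina cluster the Dam-Lamin A-labelled profile exceeded the other by 0.49 ± 0.61 (SD over bins) and was the higher in 58 of 70 bins, where it was the higher in 44.2% of all bins. It was higher by more than 0.5 in 36 bins, against 15.5% of all bins, and by more than 1 in 12 bins, against 4.15%. The Dam-Lap2b-labelled profile was higher by more than 0.5 in 4 bins, against 24.5% of all bins, and by more than 1 in 1 bin, against 7.08%. Of all windows of 700 kb, 6.29% had a larger mean difference in favour of the Dam-Lamin A-labelled profile. The difference was not particular to the locus, since it was 0.30 in the left flank and 0.40 in the right flank. In the 100 flank bins the Dam-Lamin A-labelled profile was higher in 70, by more than 0.5 in 41 and by more than 1 in 16. The other profile was higher there by more than 0.5 in 9 bins and by more than 1 in 1. Of the 12 bins with a difference above 1, 9 lay in the left part of the cluster, and the largest difference was 1.97 at 105140001 to 105150000.

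In the other loci the profiles differed less. The difference was 0.12 ± 0.36 in the Cyp2c cluster, with the Dam-Lamin A-labelled profile higher in 47 of 70 bins, and −0.04 ± 0.35 in Alb-Afp, with 11 of 20. These were 67.1% and 55% of the bins, against 44.2% of all bins. The difference exceeded 0.5 in favour of the Dam-Lamin A-labelled profile in 9 of 70 Cyp2c bins and 1 of 20 Alb-Afp bins, against 15.5% of all bins. It did so in favour of the other in 3 and 2, against 24.5% of all bins. These differences depended on how fragments were weighted. With means weighted by fragment length, that of the Cyp2c cluster turned to −0.20, that of Alb-Afp became −0.39 and that of the Serpina cluster 0.26. The Alb-Afp difference also turned in sign with bin medians, to 0.054, and with centred profiles, to 0.034, so no direction was given by these data for that locus.

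Fragment length moved with the difference between the profiles in every locus and in the genome. Among fragments under 200 bp, the Dam-Lamin A-labelled profile was higher by 0.42 in Alb-Afp, 0.38 in the Cyp2c cluster and 0.81 in the Serpina cluster, against 0.23 over all fragments. Among fragments over 1000 bp it was lower, with a difference of −0.88 in Alb-Afp and −0.25 in the Serpina cluster, against −0.82 over all fragments, and the Cyp2c means were 0.68 and 1.68. In each length class the Serpina difference lay above that of all fragments. Among fragments of 200 to 1000 bp, the largest class there, it was 0.45 against −0.11.

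Recovered reads showed from which library each ratio arose. In the Cyp2c cluster a fragment held 23.6 Dam-Lamin A reads and 24.1 Dam-Lap2b reads, or 1.09 and 1.02 times the mean of all fragments. The reference held 7.77 reads, or 0.325 times the mean. Fragments were short here, and per bin the fusions were at 1.37 and 1.28 times the mean of all bins and the reference at 0.409 times. Within each length class the fusions had more reads per fragment than over all fragments, and the reference had fewer. Under 200 bp, the largest class here, the fusions held 10.7 and 7.70 reads against 7.08 and 5.11, and the reference 2.46 against 4.85. For 200 to 1000 bp the fusions held 35.1 and 34.7 against 30.0 and 30.5, and the reference 11.5 against 32.7. Over 1000 bp the fusions held 54.8 and 96.2 against 45.7 and 74.2, and the reference 28.7 against 66.2. The high log2 values thus came with few reference reads and, for fragments of like length, more fusion reads. The median bin held 224 reference reads, against 231 in all bins of both lists and 763 in all bins of neither list. Bins in both lists had higher medians in the other loci, with 367 in Alb-Afp and 317 in the Serpina cluster. Since the reference is the denominator of the log2 values, few reference reads in bins with high values are partly built in.

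In Alb-Afp the fusions were near the mean per fragment, at 0.969 and 1.03 times, and the reference was at 0.669. Its right flank differed mainly in the reference, which was at 2.42 times the mean, with 57.8 reads per fragment, while the fusions were at 0.872 and 1.36. In the Serpina cluster the reference was at 0.618, Dam-Lamin A at 1.37 and Dam-Lap2b at 0.830. Per bin these values were 0.683, 1.52 and 0.918. On either scale the reads labelled Dam-Lamin A were above their mean in this locus and those labelled Dam-Lap2b below.

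**Figure D3:**
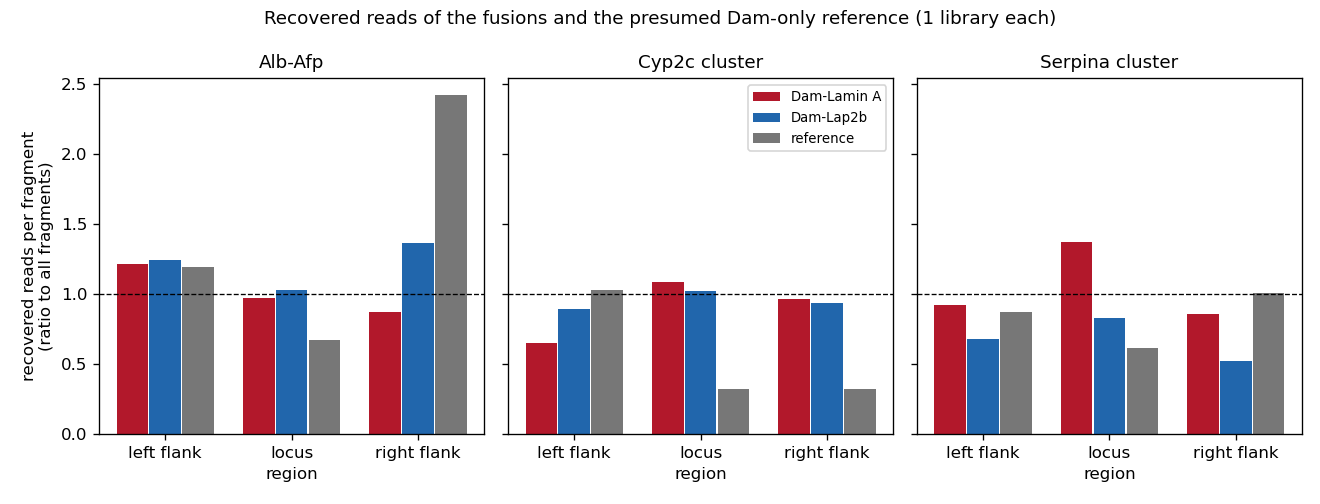
Recovered reads per fragment relative to the mean of all fragments (vertical axis, 1 library each) in the left flank, locus and right flank of each locus (horizontal axis), for Dam-Lamin A (red), Dam-Lap2b (blue) and the presumed Dam-only reference (grey). The reference falls to 0.325 in the Cyp2c cluster and rises to 2.42 in the right flank of Alb-Afp. Reads labelled Dam-Lamin A stand at 1.37 in the Serpina cluster, and both fusions are named by the labels of their profiles.

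Across the bins of a locus the profiles followed each other to different degrees, as a description, since all bins share the reference. Pearson's r was 0.840 over 20 bins of Alb-Afp, 0.857 over 70 bins of the Serpina cluster and 0.478 over 70 bins of the Cyp2c cluster, against 0.879 over all bins. The Cyp2c cluster also had the smallest spread among the 3 loci, with an SD of 0.40 and 0.28 over bins against 1.31 and 1.24 over all bins.

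Edges in and around the loci were examined in both profiles by subtracting the mean of 10 kb outside a LAD from that of 10 kb inside it. The Dam-Lamin A-labelled list had 12 edges in the loci and flanks, and the step was larger in the Dam-Lap2b-labelled profile at 10 of them, with means of 1.21 ± 0.33 (SD over edges) there and 0.77 ± 0.63 in the profile of the same label. The Dam-Lap2b-labelled list had 14 edges, and the step was larger in the Dam-Lamin A-labelled profile at 13, with means of 1.65 ± 0.47 and 0.63 ± 0.51. The crosswise relation of the whole genome was thus also seen at these edges. Inside the Serpina cluster, the edge at 105430121 of the Dam-Lap2b-labelled list had a step of 1.97 in the Dam-Lamin A-labelled profile and 0.25 in the profile of its own label.

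**Figure D4:**
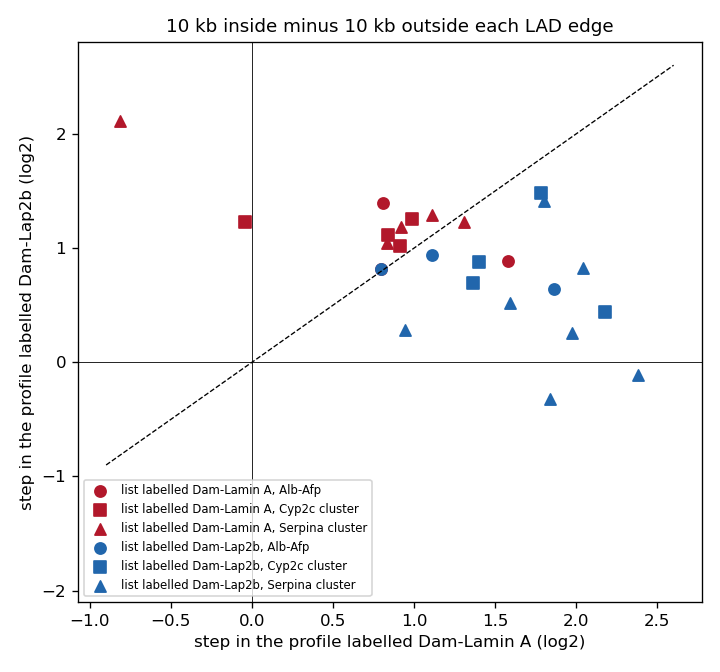
Step at each LAD edge in the loci and flanks, the mean log2 value over 10 kb inside it minus that over 10 kb outside it, in the Dam-Lamin A-labelled profile (horizontal axis) and the Dam-Lap2b-labelled profile (vertical axis). Colours give the list (red, labelled Dam-Lamin A; blue, labelled Dam-Lap2b), symbols the locus and the dashed line equal steps, with 10 of 12 red points above it and 13 of 14 blue points below it (1 edge of Alb-Afp is in both lists, so its red point lies under the blue one).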

How the data were processed

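The 2 fusions had files, and no separate file of the Dam-only sample was used here. The submitters' processing notes name Bowtie and mm9 with no role. Counting, normalization and domain calling are not given in the sources used here. As deposited, each profile held log2 values of GATC fragments in its last column, and the deposited lists held starts and ends only. Coordinates are mm9, counted from 1. The locus positions came with the request, and loci, lists and measures were chosen with earlier results of these data known.

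Fragments were assigned by their middle to 10 kb bins (at least 5 fragments) and averaged. A bin was in a LAD when its middle was. Whole numbers were recovered from the form constant + log2((fusion + 1)/(reference + 1)), with the most frequent value of each profile as constant and denominators up to 5000, for 99.997% of fragments. They are the smallest whole numbers found and so lower bounds. Windows laid end to end needed 80% of their bins. Named bins were, by rule, the highest and lowest of each locus and those that differed by over 1; others illustrate a stretch and were chosen after their values were seen. Python 3.11.15, pandas 2.3.3, numpy 2.4.6, numba 0.67.0 and scipy 1.17.1 were used.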

Additional observations from a re-analysis of the deposited data

Results flagged for a closer look

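At 4 edges near the loci the step from outside to inside a LAD had opposite signs in the 2 profiles, which rests on 1 sample in each group and was not tested. At 38684965, left of the Cyp2c cluster, the Dam-Lamin A-labelled list had a start where the step was −0.046 in the Dam-Lamin A-labelled profile and 1.23 in the Dam-Lap2b-labelled profile. At 104549434, left of the Serpina cluster, the same list had an end with steps of −0.81 and 2.11. The end at 105199467 inside the Serpina cluster, in the Dam-Lap2b-labelled list, had steps of 2.38 and −0.11. The end at 105918656 to its right, in the same list, had steps of 1.84 and −0.32. At each of these edges the positive step was in the profile of the other label.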

How the results depend on the processing

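Of 207 values under alternatives to the 27 main values, 183 stayed within the interval of the main value (a 95% normal interval over bins for means, exact binomial for shares). The alternative without a minimum of fragments could change nothing, since every bin examined held at least 5, and its values are among the 183. The intervals take neighbouring bins of 1 library as separate, so the count does not measure how well the results would repeat. Differences within 0.5 of 0 were not called, so a change of their sign counted as a change only where the value left the interval. The Alb-Afp difference turned from −0.038 to 0.054 with bin medians and to 0.034 with centred profiles, and both values are among the 183. The cause of the changes was not tested. Means weighted by fragment length gave Dam-Lamin A minus Dam-Lap2b differences of −0.39 (Alb-Afp), −0.20 (Cyp2c) and 0.26 (Serpina), and Cyp2c means of 1.37 and 1.58 in the Dam-Lamin A-labelled and Dam-Lap2b-labelled profiles. Summed reads gave 0.028 for the Cyp2c difference and means of 1.69 and 1.67. Centring on the autosomal mean gave 1.40 and 1.21 for Cyp2c, and in the Dam-Lap2b-labelled profile 0.28 for Alb-Afp and 0.25 for Serpina. The Cyp2c mean of that profile was 1.54 with medians and 1.57 with fragments of 200 to 1000 bp. Flanks of 200 kb gave locus-minus-flank values of 2.11 and 1.51 (Alb-Afp) and 0.66 and 0.53 (Serpina). With 20 kb bins, 100% of Alb-Afp bins in the Dam-Lap2b-labelled profile and 100% of Cyp2c bins in the other were above 0, and the latter share was also 100% with medians, with fragments of 200 to 1000 bp and with summed reads. Domains called with 1 rule from the Dam-Lamin A-labelled profile, as runs of bins above 0 of at least 100 kb, held 55% of Alb-Afp, since the bin at −0.05 left runs of 110 kb and 60 kb. Single fragments rest on few reads, with a median of 10 in each fusion and 7 in the reference, which limits detail below the bin. No paired analysis was possible because each group had 1 sample and the labels carry no replicate numbers.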
